A study of Homo sapiens with 6 samples.

Results

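The genes described here are 7 caspases (*CASP1*, *CASP2*, *CASP4*, *CASP6*, *CASP8*, *CASP9* and *CASP10*) and *APAF1*, the scaffold that activates caspase-9. They are 8 of the 61806 Ensembl genes counted, listed by symbol, with earlier results of these data known. All 8 passed the filter on low counts that left 19149 genes for testing. RNA was sequenced from MV4-11, a human acute myeloid leukemia (AML) cell line with the *FLT3*-ITD mutation, in 3 libraries with the control shRNA shNC (shNC 1 to 3) and 3 labelled shATGL (shATGL 1 to 3). The shATGL label stands for an shRNA against *ATGL*, the lipase listed under the symbol *PNPLA2*. It was delivered by a lentiviral vector and selected with puromycin per the study's text. The study names more than 1 such shRNA, but the sequences it lists for them are reverse complements of each other. The labels do not say which is in which library. No further treatment, time point or passage is given, and no label says whether libraries of a group came from separate cultures, so p-values measure the spread between libraries, which may be technical.

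Caspases are cysteine proteases made as inactive precursors. Initiator caspases are activated on protein platforms: caspase-9 on the apoptosome, which APAF1 forms with cytochrome c released from mitochondria; caspase-8 and caspase-10 on death receptors through the adaptor FADD; and caspase-2 on a complex built by PIDD1 and CRADD. Initiators set off the executioner caspases, to which caspase-6 belongs, and these take the cell apart. Caspase-1 and caspase-4 are inflammatory caspases that cut gasdermin D and, for caspase-1, pro-interleukin-1β. Activity is set on the protein, so the transcript counts given here are levels of precursor RNA and not of active enzyme.

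The targeted gene was at nearly the same level under both labels. *PNPLA2* was at 101, 97.003 and 107 CPM across shNC 1 to 3 against 102, 98.1 and 104 CPM across shATGL 1 to 3. CPM is counts per 1e+06 of the TMM-normalized library size. Its level was 99.6% of shNC (95% confidence interval 90.0% to 110.3%, edgeR's quasi-likelihood adjusted p = 0.979), so every direction below is a direction of the labels. Total counts were between 59674064 and 74808280 per library. The library labelled shATGL 3 stood apart from the others of its label. On the first principal component of 13935 genes, which held 55% of the variance, shATGL 1 and 2 were at −24.6 and −25.3, while shATGL 3 was at 17.2, within the range of the shNC libraries from 4.15 to 19.8. Results for the 8 genes are therefore given with and without shATGL 3. Because shATGL 3 was singled out from these same data, p-values without it are given as descriptions. Fold changes also followed transcript length: across 13770 genes the log2 fold change had a Spearman's rho of 0.40 with the length of the longest transcript, and 0.18 after each library's trend with length and GC content was removed. All 10 markers of myeloid cells and AML blasts were at 1 CPM or more in every library, and the summed CPM was 2661 to 2841 in shNC and 2415 to 2696 in the libraries labelled shATGL. Of the markers of other cells, those of T cells summed to at most 0.364 CPM and of red cells to at most 0.0690 CPM in a library, with *CD3D*, *MS4A1*, *HBB*, *EPCAM* and *COL1A2* at 0 throughout. Those of B cells summed to between 11.2 and 13.6 CPM, mostly *PAX5*, those of epithelium to at most 0.688 CPM, and those of fibroblasts and endothelium to between 259.9 and 283 CPM, almost all of it *PECAM1*, which monocytes also express.

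The 7 caspases share a short stretch around the codon of the catalytic cysteine, shown here because it is what makes them one family and because similar genes can share reads. The windows are 51 bases of exonic coding sequence from GENCODE 29 transcripts, 5′ to 3′, with the cysteine codon in capitals.
CASP1: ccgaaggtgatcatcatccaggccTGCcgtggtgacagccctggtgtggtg
CASP4: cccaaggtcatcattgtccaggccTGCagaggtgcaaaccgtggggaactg
CASP2: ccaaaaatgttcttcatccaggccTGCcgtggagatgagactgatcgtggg
CASP9: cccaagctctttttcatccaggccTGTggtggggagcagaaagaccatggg
CASP10: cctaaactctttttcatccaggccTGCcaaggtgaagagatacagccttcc
CASP8: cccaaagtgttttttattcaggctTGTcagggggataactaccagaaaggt
CASP6: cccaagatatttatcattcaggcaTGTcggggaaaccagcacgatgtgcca
The cysteine is at codon 285 of 404 in *CASP1*, 258 of 377 in *CASP4*, 320 of 452 in *CASP2*, 287 of 421 in *CASP9*, 401 of 522 in *CASP10*, 419 of 538 in *CASP8* and 163 of 293 in *CASP6*, in the longest coding transcript of each. The pairs most alike were *CASP1* with *CASP4* and *CASP2* with *CASP9*, each the same at 37 of 51 bases (72.5%), whereas the neighbours *CASP8* and *CASP10* were the same at 30 (58.8%). In the coding sequences searched, no pair of members shared 100 identical bases. Shorter shared stretches and the untranslated ends of the members were not searched. Of all stretches of 100 bases in the members' coding sequences, the ones found in a transcript of another gene were 45 of the 1113 in *CASP1* (4.04%). All were in *CARD16*, a decoy with a recruitment domain like that of caspase-1.

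The start of the coding sequence shows how close *CASP1* and *CARD16* are. The 60 bases differ at 1 position, in capitals, and further on the pair shares a run of 144 identical bases.
CASP1: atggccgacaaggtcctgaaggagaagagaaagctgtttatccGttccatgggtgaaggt
CARD16: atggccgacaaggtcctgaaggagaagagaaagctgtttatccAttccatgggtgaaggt
*CARD16* was at 3.33 to 4.997 CPM and *CASP1* at 26.8 to 44.9 CPM, and how many reads the counting placed on the wrong one of the pair was not tested. Reads from the opposite strand could also be included, since the strand setting of the counting is not given in the sources used here. *APAF1* shares 750 exon bases with *ANKS1B*, *CASP6* shares 105 with *MCUB* and *CASP9* shares 106 with *CELA2B*, each on the other strand. These partners had at most 4, 54 and 0 counts in a library, against at least 4136, 391 and 1253 for the members.

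In levels per length, *CASP2* and *CASP1* were the most abundant. Divided by the length of the longest GENCODE 29 transcript, *CASP2* was at 18.6 ± 0.386 and *CASP1* at 18.2 ± 0.783 CPM per kilobase in shNC (SD, n = 3), and these neighbours did not differ beyond their spread. *CASP8* followed at 12.5 ± 0.640 CPM per kilobase, then *APAF1* at 9.76 ± 0.872 and *CASP4* at 8.37 ± 0.230. *CASP9* at 4.73 ± 0.128 and *CASP6* at 4.38 ± 0.253 were close to each other, and *CASP10* was lowest at 2.22 ± 0.0161 CPM per kilobase. In the libraries labelled shATGL the order of the means was the same except that *CASP9*, at 4.20 ± 0.632, and *CASP6*, at 4.12 ± 0.660, differed even less. *CASP8*, at 12.3 ± 0.675, and *APAF1*, at 11.6 ± 0.993, were also closer than in shNC. The place of *CASP2* before *CASP1* rested on shATGL 3, where *CASP1* was at 13.4 and *CASP2* at 21.1 CPM per kilobase. In shATGL 1 and 2 *CASP1* was the higher, at 22.4 and 20.7 against 18.8 and 18.2 CPM per kilobase. A longest transcript that the cells do not use would lower these values, so the order is approximate.

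None of the 8 genes was called different between the groups. A call needed a fold change of 2 or more with an adjusted p under 0.05, and 0.00522% of all genes tested met it (1 of 19149). Under the shATGL label 4 members were higher and 4 lower, with a median log2 fold change of 0.0037 against 0.012 over all genes tested. The 95% confidence intervals of the 8 genes lay between 73.2% and 138% of shNC, so a halving or a doubling was outside every interval. In RNA from whole cultures, fewer cells with a transcript and less of it per cell cannot be told apart. With an unadjusted p under 0.05 there was 1 member, *APAF1*, which was higher; 5.77% of all genes tested were higher and 5.94% lower at that level.

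**Figure D1:**
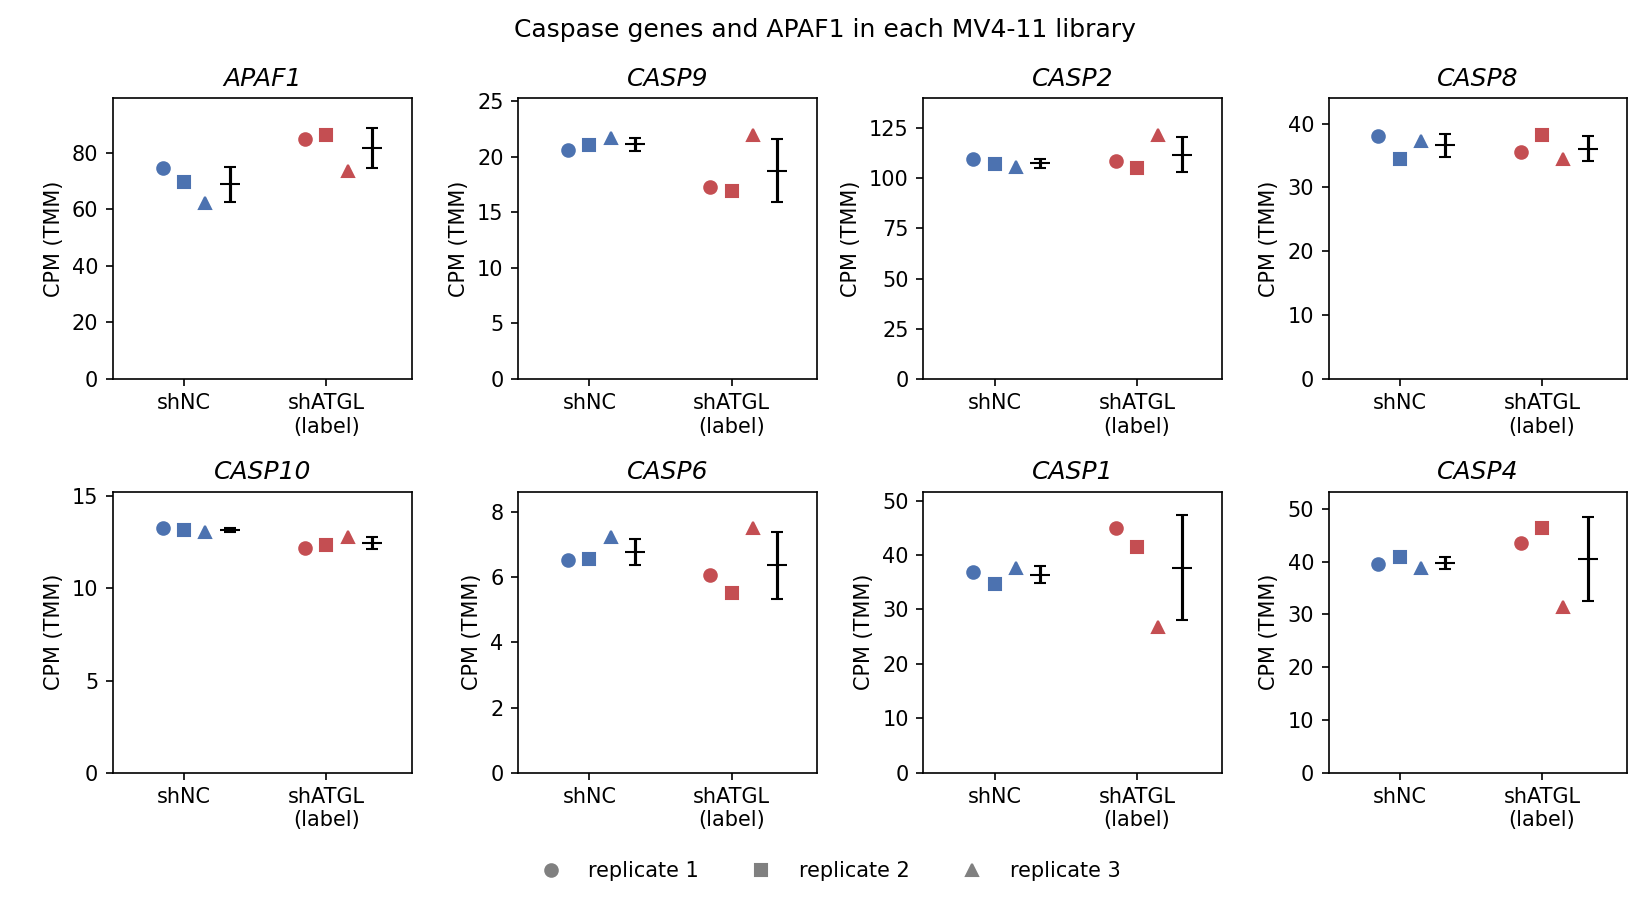
CPM (TMM-normalized, linear axis from 0) of *APAF1* and the 7 caspases in each library, with shNC in blue and the libraries labelled shATGL in red, the replicate number given by the symbol, and black bars for the mean ± SD of 3. In *CASP1* and *CASP4* the red triangle, shATGL 3, lies below every shNC library while shATGL 1 and 2 lie above them.

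*APAF1* (ENSG00000120868) lies on the plus strand of chromosome 12, from 98645141 to 98735433. Positions are those of GENCODE 29 on GRCh38. *APAF1* was at 74.7, 69.5 and 62.4 CPM across the shNC libraries 1 to 3 against 84.8, 86.4 and 73.6 CPM across shATGL 1 to 3. Libraries shATGL 1 and 2 were the highest of the 6, and shATGL 3 was below shNC 1, so the groups overlapped. The group means were 68.9 ± 6.15 and 81.6 ± 7.01 CPM (SD, n = 3), and the log2 fold change was 0.25 ± 0.09 (SE). This missed the threshold after adjustment over all genes (unadjusted p = 0.0323, edgeR's adjusted p = 0.400), and the exact permutation test gave p = 0.2, where 3 libraries against 3 allow no p under 0.1. Without shATGL 3 the log2 fold change of *APAF1* was 0.31 and the adjusted p was 0.0341 from edgeR, in a fit where 7.94% of all genes were higher and 6.07% lower at an adjusted p under 0.05. The unadjusted p of *APAF1* rose above 0.05 when shNC 2, shNC 3, shATGL 1 or shATGL 2 was left out (0.0599, 0.110, 0.0957 and 0.107 from edgeR). *APAF1* has the longest transcript of the 8 members, at 7055 bases. With the length and GC trends removed, all 6 libraries gave a log2 fold change of 0.08 (unadjusted p = 0.263, adjusted p = 0.591 from edgeR).

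*CASP9* (ENSG00000132906), whose product APAF1 activates, lies on the minus strand of chromosome 1, from 15490832 to 15526534. It was at 20.6, 21.1 and 21.7 CPM in shNC against 17.3, 16.9 and 21.98 CPM in shATGL 1, 2 and 3. Libraries shATGL 1 and 2 were below every shNC library, and shATGL 3 was above them all. With all 6 libraries the log2 fold change was −0.17 ± 0.12 (SE; adjusted p = 0.568 from edgeR, exact permutation p = 0.4). Without shATGL 3 it was −0.31 with an adjusted p of 0.0444 from edgeR. In that fit 7.94% of all genes were higher and 6.07% lower at an adjusted p under 0.05. Removing the length and GC trends from all 6 libraries left the log2 fold change of *CASP9* at −0.21 (unadjusted p = 0.0691, adjusted p = 0.374 from edgeR).

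The scaffold and its caspase were also compared as a ratio within each library, which does not depend on the library size. The CPM ratio of *APAF1* to *CASP9* was 3.63, 3.30 and 2.87 in shNC against 4.91, 5.10 and 3.35 in shATGL 1, 2 and 3. Libraries shATGL 1 and 2 were above the other 4, and shATGL 3 was within the shNC range. On the log2 scale the ratio was 0.43 higher in the libraries labelled shATGL, or 1.35-fold (exact permutation test, two-sided, p = 0.2, adjusted over 4 ratios 0.4). Without shATGL 3 the difference was 0.62 on the log2 scale. The transcripts differ in length, which was not corrected in the ratio.

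*CASP2* (ENSG00000106144), the caspase of the PIDD1 complex, lies on the plus strand of chromosome 7, from 143288215 to 143307696. It had the most counts of the members, between 6366 and 8046 per library. *CASP2* was at 109.8, 107 and 105 CPM in shNC against 109, 105 and 122 CPM in shATGL 1, 2 and 3. Only shATGL 3 left the narrow band of the others. The log2 fold change was 0.06 ± 0.07 (SE; adjusted p = 0.761 from edgeR, exact permutation p = 0.7), and without shATGL 3 it was −0.0097. The interval of *CASP2*, from 92.8% to 117% of shNC, was the narrowest of the 8.

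*CASP8* (ENSG00000064012) and *CASP10* (ENSG00000003400), the initiators at death receptors, lie side by side on the plus strand of chromosome 2, from 201233443 to 201287711 and from 201182881 to 201229406, with 4036 bases between them. *CASP8* was at 38.0, 34.4 and 37.3 CPM in shNC against 35.6, 38.3 and 34.4 CPM in shATGL 1, 2 and 3. The groups covered the same range (log2 fold change −0.02 ± 0.08 SE; edgeR adjusted p = 0.940, exact permutation p = 0.9). *CASP10* was at 13.3, 13.2 and 13.1 CPM in shNC against 12.2, 12.4 and 12.8 CPM in shATGL 1, 2 and 3. It was the only member whose groups did not overlap, with every shATGL library below every shNC library. Among all genes tested, 9.38% were lower and 7.93% higher without overlap. The level of *CASP10* was 94.7% of shNC (95% confidence interval 82.2% to 109%, log2 fold change −0.08 ± 0.09 SE; edgeR adjusted p = 0.732, exact permutation p = 0.1, the smallest possible). Without shATGL 3 the log2 fold change was −0.10, and with length and GC trends removed it was −0.17 (edgeR adjusted p = 0.548 and 0.430). For *CASP8* these values were 0.01 and −0.08.

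*CFLAR*, which encodes the caspase-8 inhibitor c-FLIP, ends 6193 bases before *CASP10* on the same strand. Its mean was 68.3 ± 3.68 CPM in shNC against 75.3 ± 3.83 CPM under the shATGL label (SD, n = 3). The CPM ratio of *CASP8* to *CFLAR* was 0.534, 0.495 and 0.582 in shNC against 0.455, 0.500 and 0.485 in shATGL 1, 2 and 3. The groups overlapped, with a log2 difference of −0.16 (exact permutation p = 0.2, adjusted over 4 ratios 0.4). With length and GC trends removed, the log2 fold change of *CFLAR* turned from 0.14 to −0.06 and that of *CASP8* was −0.08. The CPM ratio of *CASP8* to *CASP10* was 2.86, 2.61 and 2.85 in shNC against 2.92, 3.09 and 2.69 in shATGL 1, 2 and 3, a log2 difference of 0.06 (exact permutation p = 0.4, adjusted 0.533).

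*CASP6* (ENSG00000138794), the executioner among the members, lies on the minus strand of chromosome 4, from 109688622 to 109703583. It had the fewest counts, between 391 and 513 per library. *CASP6* was at 6.54, 6.57 and 7.23 CPM in shNC against 6.08, 5.52 and 7.51 CPM in shATGL 1, 2 and 3. As for *CASP9*, shATGL 1 and 2 were the lowest libraries and shATGL 3 the highest. The log2 fold change was −0.09 ± 0.15 (SE; adjusted p = 0.823 from edgeR, exact permutation p = 0.5), and −0.23 without shATGL 3 (adjusted p = 0.317 from edgeR).

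The inflammatory caspases showed the widest spread under the shATGL label. *CASP1* (ENSG00000137752) and *CASP4* (ENSG00000196954) lie on the minus strand of chromosome 11, from 105025443 to 105035250 and from 104942866 to 104969436. *CASP1* was at 36.8, 34.6 and 37.6 CPM in shNC against 44.9, 41.4 and 26.8 CPM in shATGL 1, 2 and 3. *CASP4* was at 39.5, 40.9 and 38.7 CPM in shNC against 43.6, 46.3 and 31.4 CPM in shATGL 1, 2 and 3. In both genes shATGL 1 and 2 were above every shNC library and shATGL 3 was below every one, at 62.0% of the mean of shATGL 1 and 2 in *CASP1* and 69.8% in *CASP4*. The coefficient of variation was 4.31% in shNC against 25.6% under the shATGL label in *CASP1*, and 2.75% against 19.7% in *CASP4*.

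The group means of the inflammatory caspases were thus nearly equal. The log2 fold change of *CASP1* was 0.05 ± 0.18 (SE; edgeR adjusted p = 0.924, exact permutation p = 0.9), and that of *CASP4* was 0.03 ± 0.14 (SE; adjusted p = 0.952 from edgeR, exact permutation p = 1). Without shATGL 3 these were 0.25 (adjusted p = 0.055 from edgeR) and 0.18 (adjusted p = 0.102 from edgeR). With the length and GC trends removed, all 6 libraries gave −0.04 in *CASP1* and −0.16 in *CASP4* (unadjusted p = 0.766 and 0.0472 from edgeR), so the sign turned in both. The CPM ratio of *CASP1* to *CASP4* was 0.933, 0.846 and 0.971 in shNC against 1.03, 0.895 and 0.853 in shATGL 1, 2 and 3. The groups overlapped, with a log2 difference of 0.01 between the groups (exact permutation p = 0.9, adjusted over 4 ratios 0.9).

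**Figure D2:**
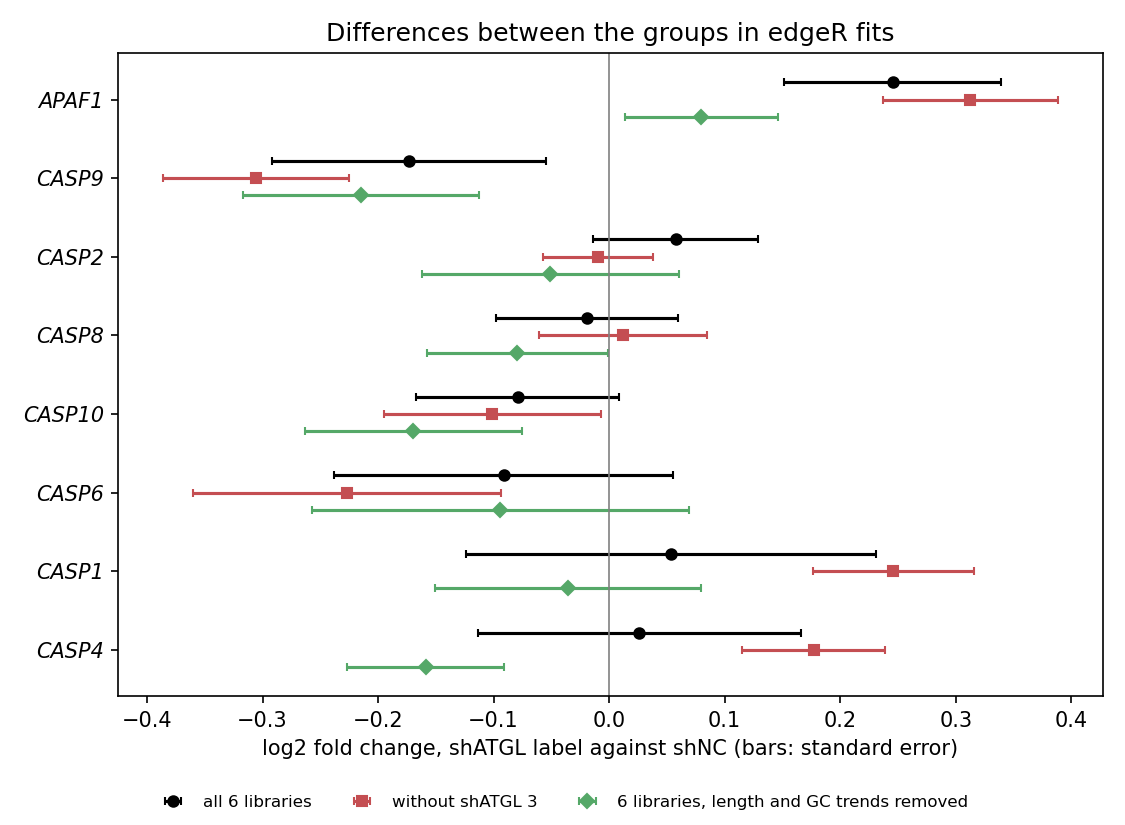
Log2 fold change of each member, libraries labelled shATGL against shNC, with bars for the standard error, from edgeR fits of all 6 libraries (black), without shATGL 3 (red) and of all 6 with length and GC trends removed (green). *APAF1* is above 0 in all 3 fits, and *CASP6*, *CASP9* and *CASP10* are below 0 in all 3. *CASP1* and *CASP4* move from 0.05 and 0.03 to 0.25 and 0.18 when shATGL 3 is left out. With the trends removed they are at −0.04 and −0.16.

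**Figure D3:**
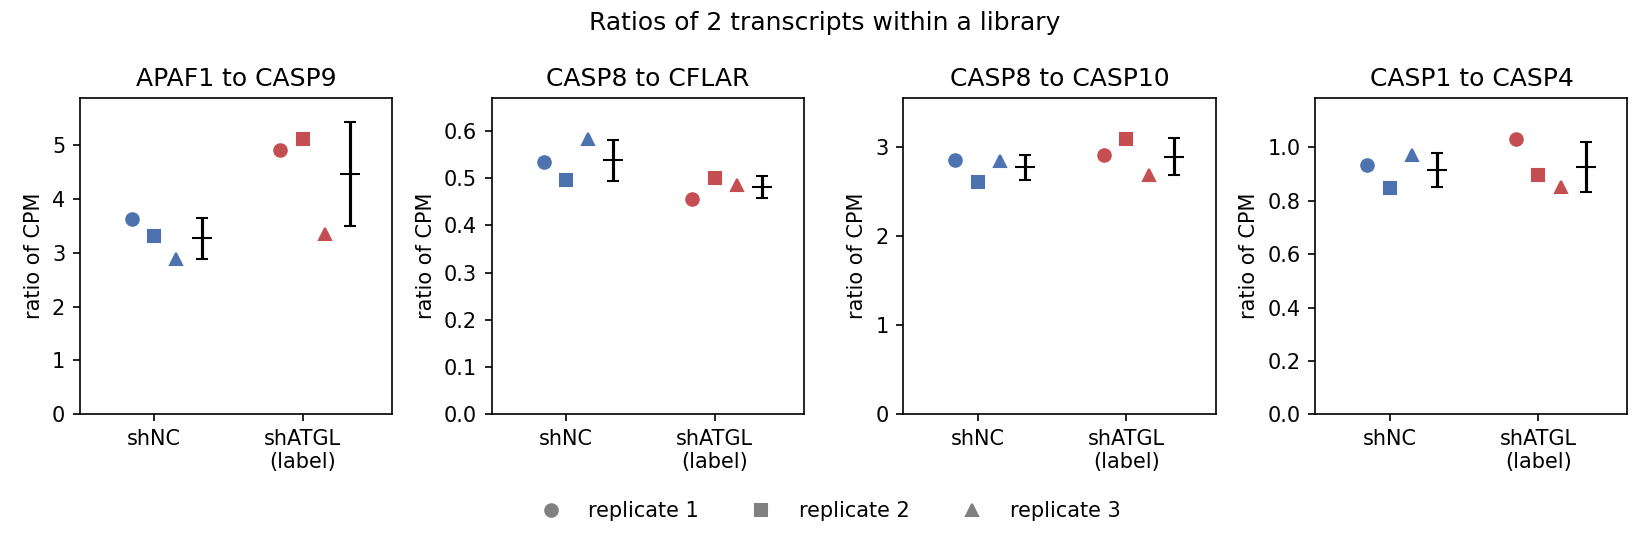
CPM ratios of 2 genes within each library on linear axes from 0, with shNC in blue, libraries labelled shATGL in red, the replicate number given by the symbol, and black bars for the mean ± SD of 3 ratios. The ratio of *APAF1* to *CASP9* is 4.91 and 5.10 in shATGL 1 and 2 and at most 3.63 in the other libraries.

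Across the 6 libraries the members fell into sets that varied together, given as a description because libraries of the same label share it. Pearson's r of log2(CPM + 1) was 0.923 for *CASP6* with *CASP9*, 0.918 for *CASP1* with *CASP4* and 0.843 for *CASP9* with *CASP10*. It was −0.902 for *CASP4* with *CASP6*, −0.880 for *CASP9* with *APAF1* and −0.870 for *CASP2* with *CASP4*. Among 13934 other genes with a mean of at least 1 CPM, the gene most like each member over these 6 libraries was *LANCL3* for *CASP1* (r = 0.992), *DNAJC5B* for *CASP4* (r = 0.998), *TATDN2* for *CASP2* (r = 0.993), *ZCWPW1* for *CASP6* (r = 0.995), *FLT3LG* for *CASP8* (r = 0.993), *ISCU* for *CASP9* (r = 0.998), *DDX59* for *CASP10* (r = 0.996) and the pseudogene *WHAMMP1* for *APAF1* (r = 0.996). These genes were picked as the highest r of all those searched, and r was not tested.

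Among caspases outside the 8, *CASP12* and *CASP14* had 0 counts in every library, which allows at most 0.0503 CPM, and *CASP5*, beside *CASP1* and *CASP4* on chromosome 11, had at most 2.

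The partners of the caspases were described as lists of 55 genes in all, of which 47 were tested. Under the shATGL label 19 of them were higher and 28 lower, with a median log2 fold change of −0.07. None had an adjusted p under 0.05, and 3 had an unadjusted p under 0.05 (6.38%, against 11.7% of all genes tested). Without shATGL 3, 10 of the 47 had an adjusted p under 0.05, 5 higher and 5 lower, where 7.94% of all genes were higher and 6.07% lower.

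Among 8 adaptors and activators, 3 were higher and 5 lower. *PIDD1*, the scaffold that activates caspase-2, was at 45.8, 45.9 and 42.6 CPM in shNC against 59.3, 59.6 and 50.8 CPM in shATGL 1, 2 and 3. It was above shNC in every library labelled shATGL, shATGL 3 included, and 7.93% of all genes tested were likewise higher without overlap. The log2 fold change was 0.34 ± 0.08 (SE; unadjusted p = 0.00462, adjusted p = 0.392 from edgeR, exact permutation p = 0.1), 0.41 without shATGL 3 (adjusted p = 0.00701 from edgeR) and 0.26 with length and GC trends removed (unadjusted p = 0.0134). *PIDD1* lies on the minus strand of chromosome 11, from 799179 to 809753, 9148 bases from *PNPLA2*. *CRADD*, which joins PIDD1 to caspase-2, was at 7.43 ± 0.299 and 5.91 ± 1.33 CPM (SD, n = 3), and its log2 fold change of −0.33 did not pass the adjustment (adjusted p = 0.481 from edgeR), and −0.53 without shATGL 3 (adjusted p = 0.0370 from edgeR). *FADD*, the adaptor of caspase-8 and caspase-10, was at 48.4 ± 1.02 and 44.6 ± 4.79 CPM (log2 fold change −0.12; edgeR adjusted p = 0.604, and 0.0469 without shATGL 3).

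Of 11 inhibitors and decoys 9 were tested, 6 higher and 3 lower, with a median log2 fold change of 0.15 and 0 under an unadjusted p of 0.05. The smallest p was that of *BIRC6*, a large inhibitor of apoptosis protein, at 61.5, 62.6 and 54.3 CPM in shNC against 95.1, 99.8 and 50.8 CPM in shATGL 1, 2 and 3. Library shATGL 3 was again on the other side of shNC from shATGL 1 and 2 (log2 fold change 0.46 ± 0.23 SE; edgeR adjusted p = 0.468). Without shATGL 3 the value for *BIRC6* was 0.71 (edgeR adjusted p = 0.00134), and with length and GC trends removed from all 6 libraries it was 0.21 (unadjusted p = 0.190 from edgeR). *DIABLO*, a mitochondrial protein that binds and relieves such inhibitors, was at 47.7, 42.0 and 51.6 CPM in shNC against 38.1, 36.2 and 40.8 CPM in shATGL 1, 2 and 3. Its groups did not overlap, and 9.38% of all genes tested were likewise lower without overlap. The log2 fold change of *DIABLO* was −0.30 ± 0.10 SE (edgeR unadjusted p = 0.0154, adjusted p = 0.392). Without shATGL 3 the value was −0.34 (edgeR adjusted p = 0.0452), and with length and GC trends removed it was −0.33 (edgeR unadjusted p = 0.0132). *HTRA2*, the other mitochondrial antagonist, had a log2 fold change of −0.11.

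**Figure D4:**
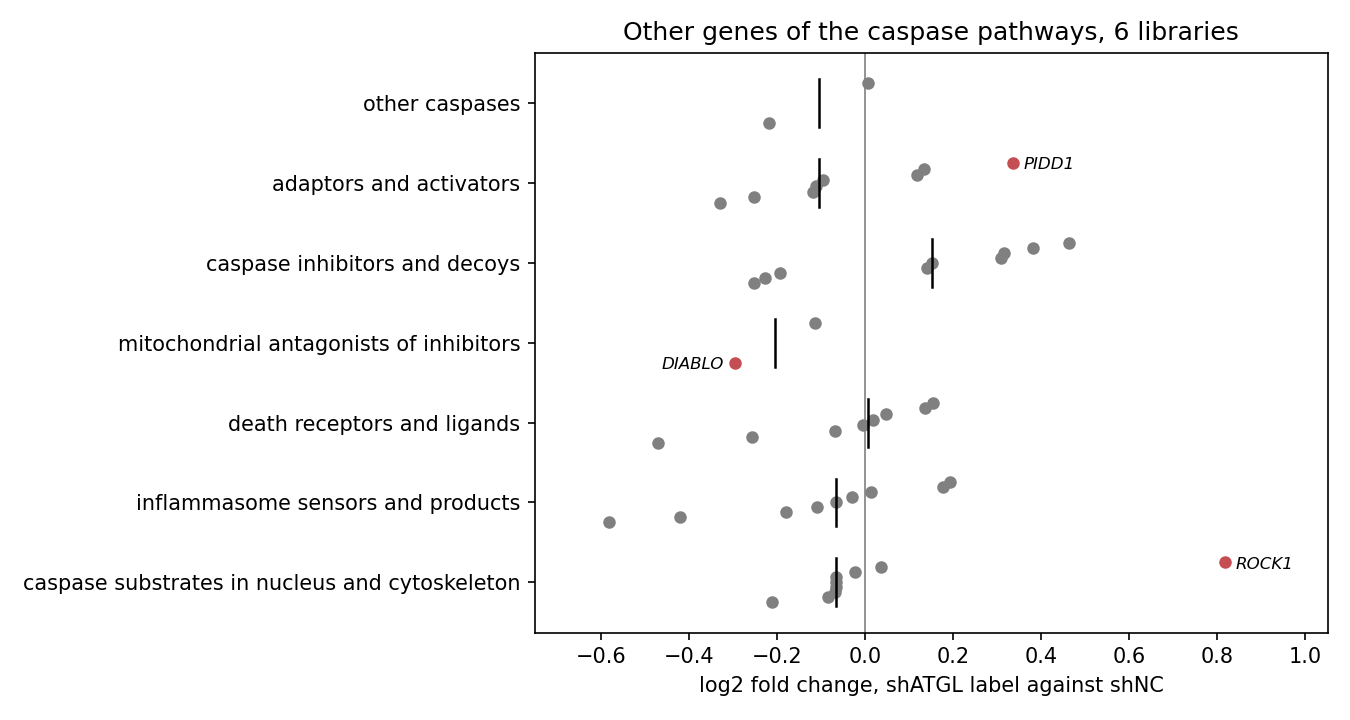
Log2 fold change of the 47 tested partner genes, libraries labelled shATGL against shNC, all 6 libraries, grouped by role; red points with names have an unadjusted p under 0.05 and black bars are list medians. *PIDD1* at 0.34, *DIABLO* at −0.30 and *ROCK1* at 0.82 are the 3 red points.

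In the death receptor list 4 of 8 tested genes were higher and 4 lower, with none under an unadjusted p of 0.05. *TNFRSF10C* had the smallest p there, at 0.440 ± 0.0639 and 0.317 ± 0.0745 CPM (SD, n = 3, adjusted p = 0.631 from edgeR). *FASLG* had 0 counts in every library. Of 9 tested inflammasome genes 3 were higher and 6 lower, and the smallest p was that of *GSDME* (log2 fold change −0.42, adjusted p = 0.503 from edgeR). *GSDMD*, the substrate of caspase-1 and caspase-4, was at 92.0 ± 2.65 and 92.9 ± 3.93 CPM (SD, n = 3). Of 9 caspase substrates 2 were higher and 7 lower. *ROCK1*, a kinase that caspases activate during membrane blebbing, was at 45.4, 51.5 and 45.7 CPM in shNC against 101, 102 and 48.3 CPM in shATGL 1, 2 and 3. Libraries shATGL 1 and 2 were at about the same raised level and shATGL 3 was within the shNC range (log2 fold change 0.82 ± 0.26 SE; edgeR unadjusted p = 0.0143, adjusted p = 0.392). Without shATGL 3 the log2 fold change of *ROCK1* was 1.09 (adjusted p = 1.93e-04 from edgeR). With length and GC trends removed from all 6 libraries it was 0.56 (unadjusted p = 0.00861 from edgeR). *ROCK1* has a partial duplicate, *ROCK1P1*, with which the counting could have shared reads.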

How the data were processed

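RNA-seq libraries were prepared from 6 MV4-11 samples, 3 labelled shNC and 3 labelled shATGL. The authors filtered reads for quality with FASTP and deposited raw read counts per Ensembl gene, without normalization. The aligner, counting tool and strand setting are not given in the sources used here, and the submitters' processing notes name only the mouse build mm10, although every identifier is a human Ensembl gene. Positions, lengths and sequences were taken from GENCODE 29 for GRCh38, which matched 58254 of 61806 identifiers.

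Genes were filtered with filterByExpr (minimum count 10, minimum total 15), normalized by TMM and compared with edgeR's quasi-likelihood test (edgeR 4.0.16, R 4.3.3) without a block. The Benjamini-Hochberg adjustment ran over all 19149 tested genes. Alternatives used DESeq2 1.42.0, limma 3.58.1 voom with quality weights, other normalizations and filters, each library left out, and offsets from natural splines (4 degrees of freedom) on length and GC content. Single values were tested by exact two-sided permutation over 20 relabellings. Log2(CPM + 1) was used for correlations. The edgeR procedure was tested on simulated data. The members, lists and alternatives were chosen with earlier results of these data known. Named partners are the ratio genes, sequence or position neighbours, the gene with the highest correlation to each member, the genes with an unadjusted p under 0.05, the smallest p of a list with none, and *CRADD*, *FADD*, *HTRA2*, *GSDMD*, *FASLG*, *CASP5*, *CASP12* and *CASP14*, chosen after their values were seen. Some genes of this rule are not reported here. Depth limits *CASP6* most, with 391 to 513 counts.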

Additional observations from a re-analysis of the deposited data

How the results depend on the processing

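The members called numbered 0 under each of the 15 alternatives. With an adjusted p under 0.05 at any fold change there were 0 members in the analysis as reported. There was 1 with limma voom with quality weights (*APAF1*, log2 fold change 0.27, adjusted p = 0.0473). In that fit 30.6% of all genes had an unadjusted p under 0.05. With a library left out there were from 0 to 2, the 2 (*APAF1* and *CASP9*) without shATGL 3. Without shATGL 3, 7.94% of all genes were higher and 6.07% lower at an adjusted p under 0.05. The cause of these differences between settings was not tested.

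Of 120 member values under alternatives, 102 kept their direction and side of the threshold, 15 turned in sign and 3 passed the threshold. With libraries left out in turn the log2 fold changes went from −0.092 to 0.25 in *CASP1*, −0.0097 to 0.10 in *CASP2*, −0.083 to 0.18 in *CASP4*, −0.23 to 0.0015 in *CASP6*, −0.063 to 0.012 in *CASP8*, −0.31 to −0.11 in *CASP9*, −0.10 to −0.057 in *CASP10* and 0.18 to 0.31 in *APAF1*. With voom *CASP2* was at −0.0026. With length and GC trends removed *CASP1*, *CASP2* and *CASP4* were at −0.035, −0.051 and −0.16, and with the replicate block added at −0.044, −0.063 and −0.16, while *CASP10* went from −0.08 to −0.17 in both. The log2 difference of the *CASP1* to *CASP4* ratio went from −0.067 to 0.070.

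The partner genes with an unadjusted p under 0.05 numbered 3, where 11.7% of all genes had such a p. They numbered 22 with voom (30.6% of all genes), 9 with the replicate block (17.3%), 8 with length and GC trends removed (14.6%) and 9 with both (19.1%). With a library left out they numbered 1 to 20, the 1 without shATGL 2 (5.17% of all genes) and the 20 without shATGL 3 (28.8%). With the replicate block *APAF1* had an unadjusted p of 0.00435 and an adjusted p of 0.133 from edgeR. The block changed no member's side of the threshold. Deviations of libraries sharing a number correlated at 0.0599, 0.233 and 0.343, and those of libraries with different numbers at −0.291 to 0.192. The labels do not say whether a shared number pairs the samples, and the analysis as reported used no block.

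Over all genes, calls numbered 1, 24 with DESeq2, 266 with voom and 0 to 319 with a library left out (319 without shATGL 3).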
